A study of Mus musculus with 2 samples.

Results

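Lhx6, Sox6, Satb1, Dlx1, Dlx2, Dlx5, Dlx6, Prox1 and Nr2f2 are 9 transcription factor genes used to follow cortical interneurons, the inhibitory neurons that release GABA. They were taken from the deposited gene and transcript quantifications by matching identifiers, without version, to symbols of the GENCODE M21 annotation, a rule that uses no measured value. They make up 9 of 43346 annotated genes and 47 of 103639 annotated transcripts. The tissue was the frontal cortex of adult mice (strain C57BL/6J, 8 weeks old), which the labels call mixed-sex littermates, male and female pooled, with the same donor entry for both libraries. There was 1 group with 2 biological replicates and no treatment or second genotype. Polyadenylated RNA above 200 nt, depleted of ribosomal RNA and mixed with spike-in RNAs, was sequenced from both ends with its strand kept.

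Cortical interneurons are born outside the cortex, in the ganglionic eminences of the ventral forebrain, and migrate into it. Dlx homeodomain proteins are made across these eminences and maintain the GABAergic programme. Lhx6, Sox6 and Satb1 act one after another in cells of the medial ganglionic eminence (MGE), the source of parvalbumin and somatostatin interneurons, whereas Prox1 and Nr2f2 (also called COUP-TFII) mark cells of the caudal eminence (CGE), the source of VIP and many neurogliaform interneurons. In the adult, Dlx genes are also active in newborn interneurons of the olfactory bulb, Sox6 in oligodendrocyte precursors, Satb1 in excitatory neurons and T cells, Nr2f2 in vessels, and Prox1 in dentate granule cells and lymphatic endothelium. In bulk tissue, fewer cells of a type and less RNA per cell cannot be told apart.

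Estimated counts summed to 101771589 over annotated genes in replicate 1 and to 86854784 in replicate 2. Markers of cortical excitatory neurons were high, with Camk2a at 707 ± 2.81 and Slc17a7 at 424 ± 32.5 TPM (a transcript's share of all transcripts after division by length; mean ± SD, n = 2 throughout). Markers of the olfactory bulb and its neuroblasts were present in both libraries as well, all 10 of 10 at a mean of 1 TPM or more, with summed levels of 654 and 634 TPM. That mean was reached by 14599 of all 43346 annotated genes. The libraries did not match their shared label of pooled sexes, since Xist had 107 counts in replicate 1 and 77696 in replicate 2, and the Y-linked Eif2s3y had 7150 and 3. The activity-dependent gene Fos stood at 19.7 and 52.2 TPM in replicates 1 and 2. Values of the 9 genes are therefore given for each library, and the part of these differences in the results was not tested.

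The 4 Dlx genes lie in 2 pairs of facing genes, Dlx1 (plus strand) with Dlx2 (minus strand) on chromosome 2 and Dlx6 (plus strand) with Dlx5 (minus strand) on chromosome 6. Each encodes a homeodomain, the DNA-binding part, whose coding sequence is shown because near-identical stretches would let reads of one gene be counted for another. The 180 coding bases, 60 codons, are printed 5′ to 3′ from GENCODE M21 transcripts, with capitals at the 74 positions where at least 1 of the 4 genes differs and lower case at the 106 positions shared by all 4. In mm10 they span chr2:71531025-71532311 (plus strand, Dlx1), chr2:71544877-71545515 (minus strand, Dlx2), chr6:6878441-6879657 (minus strand, Dlx5) and chr6:6865140-6867088 (plus strand, Dlx6), each across an intron.
Dlx1-201: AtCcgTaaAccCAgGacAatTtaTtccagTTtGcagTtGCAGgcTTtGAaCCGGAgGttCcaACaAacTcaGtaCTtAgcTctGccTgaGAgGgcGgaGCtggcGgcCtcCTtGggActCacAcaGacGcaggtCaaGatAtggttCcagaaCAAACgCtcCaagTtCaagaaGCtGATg
Dlx2-201: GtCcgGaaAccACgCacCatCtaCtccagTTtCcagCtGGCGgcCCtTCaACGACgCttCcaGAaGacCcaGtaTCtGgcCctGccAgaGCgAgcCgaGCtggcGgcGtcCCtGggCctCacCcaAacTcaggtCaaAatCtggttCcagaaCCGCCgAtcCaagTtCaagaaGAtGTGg
Dlx5-201: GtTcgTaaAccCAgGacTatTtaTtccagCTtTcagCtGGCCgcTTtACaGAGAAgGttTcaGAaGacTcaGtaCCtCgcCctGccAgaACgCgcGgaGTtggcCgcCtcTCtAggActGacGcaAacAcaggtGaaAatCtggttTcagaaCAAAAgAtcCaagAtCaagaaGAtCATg
Dlx6-202: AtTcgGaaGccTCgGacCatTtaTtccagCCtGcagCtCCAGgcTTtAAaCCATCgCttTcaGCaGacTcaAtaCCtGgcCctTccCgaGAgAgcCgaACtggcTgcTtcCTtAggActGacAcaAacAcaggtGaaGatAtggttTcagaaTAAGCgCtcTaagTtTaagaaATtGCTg

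Identity between these homeobox sequences ran from 71.1% (Dlx2 with Dlx6) to 76.7% (Dlx1 with Dlx6). The longest identical run between full transcripts of any 2 of the 4 genes was 23 nt, shared by Dlx2 and Dlx6, far shorter than a read. No window of a Dlx transcript as long as a read occurred in a transcript of another gene on the same strand. The same held for Sox6, Prox1 and Nr2f2, while Lhx6 shared 0.125% of its windows with Gm27953, which had 0 counts in both libraries, and Satb1 shared 0.304% with Gm36931 (27 and 36 counts). The deposited gene counts of all 9 genes were whole, within 0.005 of an integer, in both libraries, and their deposited posterior SD was 0 except for Satb1 in replicate 1, where it was 0.06 counts.

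All 9 genes reached 1 TPM in both libraries, and their mean levels spanned a range from 1.45 TPM for Prox1 to 95.5 TPM for Dlx1. A mean of 1 TPM or more was reached by 14599 of all 43346 annotated genes, 13247 of them protein coding. This is the background for the marker lists below too. Among protein-coding genes Dlx1 ranked 999th (percentile 95.3) and Prox1 12727th (percentile 40.7). By mean TPM the order was Dlx1, Satb1, Dlx6, Dlx2, Dlx5, Nr2f2, Lhx6, Sox6 and Prox1. Neighbours were called apart when the sign of the log2 ratio was the same in both libraries, its mean exceeded its SD and the deposited TPM intervals, whose level the files do not state, were apart in both. By this rule 4 of 8 neighbouring steps were apart: Dlx1 over Satb1, Satb1 over Dlx6, Nr2f2 over Lhx6 and Sox6 over Prox1. Dlx6, Dlx2, Dlx5 and Nr2f2 formed a run in which no neighbour was apart from the next, and Lhx6 and Sox6 changed places between the libraries.

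**Figure D1:**
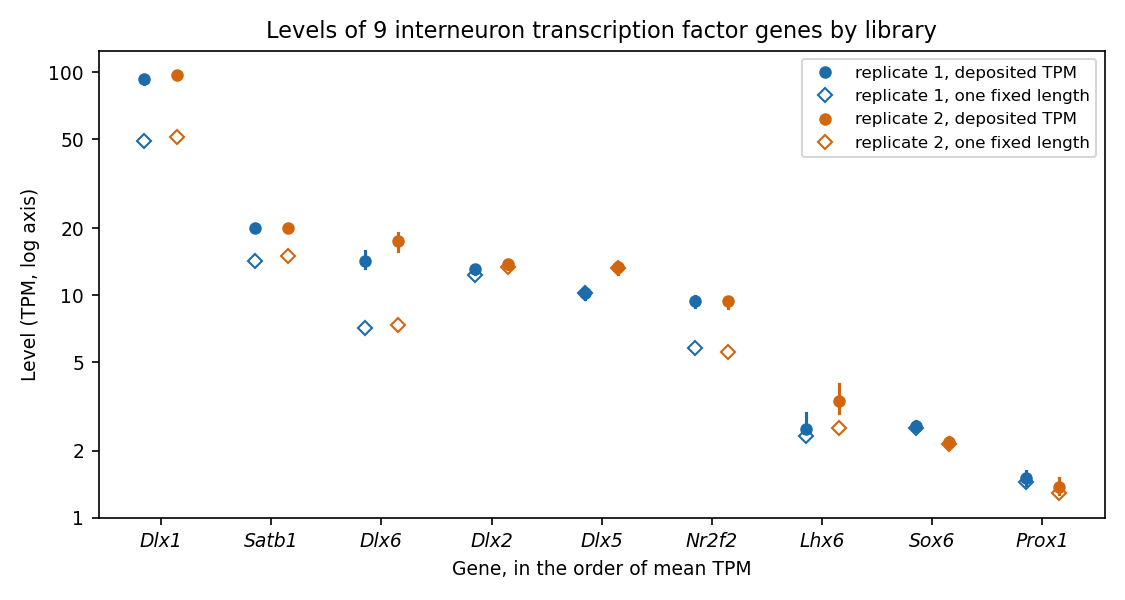
Level of each of the 9 genes in TPM on a log axis, with 1 filled circle per library (n = 2), vertical lines for the deposited intervals, and open diamonds for the level recomputed with 1 fixed length per gene. Dlx1 stands above the others at 93.2 and 97.8 TPM, Prox1 is lowest at 1.51 and 1.38 TPM, and the diamonds fall well below the circles for Dlx1, Dlx6 and Nr2f2.

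Dlx1 (ENSMUSG00000041911.3, chr2:71528113-71533981, plus strand) had 15851 and 15044 counts and levels of 93.2 and 97.8 TPM in replicates 1 and 2. Its level was the highest of the 9 in each library, and its deposited intervals in the 2 libraries overlapped. Dlx2 (ENSMUSG00000023391.8, chr2:71543408-71546754, minus strand), the partner that shares enhancers with Dlx1, had 2319 and 2265 counts and stood at 13.1 and 13.8 TPM, with overlapping intervals. The log2 ratio of Dlx1 over Dlx2 in TPM was 2.83 in replicate 1 and 2.82 in replicate 2 (mean 2.83 ± 0.0040). The facing genes thus differed in level by far more than the libraries did. With each gene divided by the effective length of its longest protein-coding transcript, an alternative chosen after seeing the data, Dlx1 was at 50.3 ± 1.71 TPM and Dlx2 at 12.9 ± 0.718 TPM, a log2 ratio of 1.97 ± 0.03. The longest transcript need not be the leading one. For Dlx6 it was Dlx6-202, at 25.8% and 20.3% of the gene's TPM, and for Lhx6 it was Lhx6-203, with 0 counts in both libraries.

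Dlx6 (ENSMUSG00000029754.9, chr6:6863334-6868568, plus strand) had 1187 and 1107 counts and stood at 14.2 and 17.5 TPM, higher in replicate 2, with intervals apart. Dlx5 (ENSMUSG00000029755.9, chr6:6877805-6882085, minus strand) had 1026 and 1197 counts and stood at 10.2 and 13.3 TPM, also higher in replicate 2 with intervals apart. The log2 ratio of Dlx5 over Dlx6 in TPM was −0.47 and −0.39, Dlx6 being the higher in both libraries. This order depended on length, since with the fixed length the mean log2 ratio turned to 0.68 ± 0.23. On that scale Dlx6 was at 7.26 ± 0.168 TPM and Dlx5 at 11.7 ± 2.13 TPM. Dlx2 over Dlx6 was not apart in TPM, at −0.22 ± 0.16, and was 0.83 ± 0.0471 with a fixed length.

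The other Dlx genes of the mouse, Dlx3 and Dlx4, which act mainly outside the brain, were at the limit of counting. Dlx3 had 1 count in replicate 1 and 16 in replicate 2, and Dlx4 had 1 and 6. Neither count supports a ratio to Dlx1.

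Long noncoding RNAs run antisense through both Dlx loci. Dlx1as, antisense to Dlx1, stood at 13.0 and 13.2 TPM (468 and 422 counts), 2.87 ± 0.04 below Dlx1 on the log2 TPM scale. It shares 335 of the 5396 exon bases of Dlx1, and 4.16% of the read-length windows of Dlx1 match it on the opposite strand. Dlx6os1, the antisense RNA also known as Evf2 that regulates Dlx5 and Dlx6 in the embryo, had 5026 and 4413 counts and stood at 14.7 and 14.3 TPM. In TPM, Dlx6 was not apart from it, with log2 ratios of −0.05 in replicate 1 and 0.29 in replicate 2. This depended on length, since Dlx6 was the lower by −0.96 ± 0.06 with a fixed length. For Dlx6os1 that length was its longest transcript. In counts not divided by length the mean log2 ratio was −2.04. No exon bases of Dlx6os1 overlap those of Dlx6, while Dlx6os2 (120 and 84 counts) overlaps 104 of them. Whether the counting used strand is not given in the sources used here, so reads from the overlapping bases cannot be assigned to one strand with certainty.

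Among the MGE factors, Satb1 (ENSMUSG00000023927.11, chr17:51736187-51833290, minus strand), a chromatin organiser needed for maturation of somatostatin interneurons, had 7118 and 6795 counts and stood at 20.03 and 20.06 TPM. The TPM values were nearly equal, while counts scaled for depth were higher in replicate 2. Lhx6 (ENSMUSG00000026890.15, chr2:36081953-36105408, minus strand), the LIM homeobox gene that directs MGE interneuron fate, had 635 and 620 counts and stood at 2.51 and 3.36 TPM. Its value was higher in replicate 2, with overlapping intervals. Sox6 (ENSMUSG00000051910.9, chr7:115470872-116038796, minus strand), an HMG-box factor downstream of Lhx6, had 1686 and 1280 counts and stood at 2.59 and 2.18 TPM, lower in replicate 2 with intervals apart. Per length, Satb1 thus stood well above Lhx6 and Sox6. Those genes were not apart from each other (log2 ratio −0.05 in replicate 1 and 0.62 in replicate 2).

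Nkx2-1, which specifies the MGE before Lhx6 and falls silent in migrating cortical interneurons, had 15 and 26 counts. Lhx8, a paralog of Lhx6, had 5 and 5 counts. Lhx6 was above Nkx2-1 by 4.55 ± 0.35 on the log2 TPM scale. The listed MGE factors also included Mef2c, at 82.3 ± 3.69 TPM, and Zeb2, at 45.2 ± 1.89 TPM, both made by other cortical cells too. Of the 9 genes in this MGE list 6 had a mean of 1 TPM or more, and their median ratio of replicate 2 over replicate 1 was −0.02 on the log2 scale.

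The CGE markers differed from each other. Nr2f2 (ENSMUSG00000030551.9, chr7:70351944-70366735, minus strand), an orphan nuclear receptor, had 1929 and 1665 counts and stood at 9.45 and 9.37 TPM, level between the libraries. Prox1 (ENSMUSG00000010175.9, chr1:190118035-190170714, minus strand), a homeobox factor needed for CGE interneuron maturation, had 920 and 746 counts and stood at 1.51 and 1.38 TPM, with overlapping intervals. Log2 TPM ratios over Nr2f2 were −1.70 ± 0.31 for Lhx6 and −1.99 ± 0.17 for Sox6, and 1.09 ± 0.01 for Satb1. Against Prox1 all 3 MGE factors were higher, Lhx6 by 1.01 ± 0.39, Sox6 by 0.72 ± 0.08 and Satb1 by 3.80 ± 0.09. The Lhx6 over Prox1 order turned to −0.40 in counts not divided by length, since Prox1 has long transcripts (effective length 7382 nt in replicate 1 against 3054 nt for Lhx6). Per length and among the members only, Satb1 and Nr2f2 were thus the higher MGE and CGE genes, and Lhx6, Sox6 and Prox1 the lower.

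Other factors of the CGE and the lateral eminence were mostly above Nr2f2 and Prox1. All 12 of 12 in that list had a mean of 1 TPM or more, with a median of 20.2 TPM. Meis2, made in lateral eminence derivatives, was highest at 208 ± 21.3 TPM, followed by Tcf4, a broadly made neuronal factor, at 59.6 ± 4.34 TPM. Sp8, a zinc-finger factor of CGE cells and olfactory bulb interneurons, stood at 13.6 and 16.3 TPM, and the log2 TPM ratio of Prox1 over it was −3.37 ± 0.28. B130024G19Rik, on the strand opposite Nr2f2, had 176 and 142 counts, shares 643 exon bases with it and matches 11.4% of its read-length windows in reverse. Prox1os had 54 and 62 counts and matches 0.393% of the windows of Prox1, and Gm28172, also antisense to Prox1, had 2 and 0. Antisense to Sox6, Sox6os had 9 and 2 counts, and the 6 unclassified loci that overlap Satb1 had between 19 and 65 each.

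Paralogs with other cell patterns were often more abundant than the members. Lhx2, a cortical progenitor and projection neuron factor, stood at 31.2 and 31.5 TPM, and the log2 TPM ratio of Lhx6 over it was −3.43 ± 0.29. Sox5, of deep-layer projection neurons, stood at 11.4 and 12 TPM and Sox13 at 9.36 and 9.66 TPM, with ratios of Sox6 over them of −2.297 ± 0.232 and −2.001 ± 0.208. Nr2f1, made in both interneurons and projection neurons, stood at 57.5 and 59.3 TPM and Nr2f6 at 22.0 and 21.1 TPM, with ratios of Nr2f2 over them of −2.63 ± 0.04 and −1.19 ± 0.03. Prox1 was instead the higher of its pair, above Prox2 (93 and 100 counts) by 1.67 ± 0.29. Of all 25 fixed pairs, 23 were apart in TPM, and the exceptions were Dlx2 over Dlx6 and Dlx6 over Dlx6os1. The 23 include the pairs with Dlx3 and Dlx4, whose counts support no ratio.

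**Figure D2:**
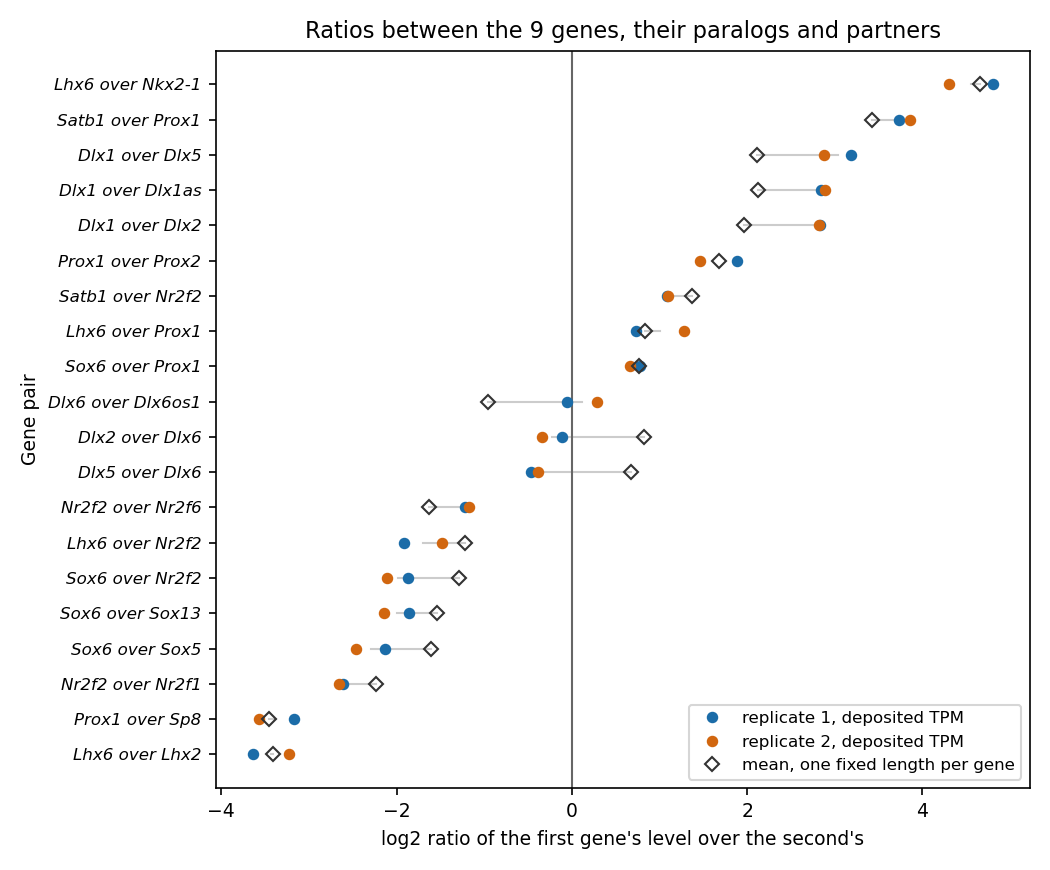
Log2 ratio of the first gene's TPM over the second's for 20 of the 25 pairs (those with Dlx3, Dlx4 and Lhx8, which had few counts, are among those not drawn), with 1 circle per library and a diamond for the mean ratio with 1 fixed length per gene. The libraries nearly coincide for Dlx1 over Dlx2 at 2.83 and 2.82, while the diamond of Dlx5 over Dlx6 lies at 0.68, on the other side of 0 from both circles.

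Each library was then compared with the other, gene by gene, as the log2 ratio of replicate 2 over replicate 1 of counts scaled by TMM (a normalisation that centres most genes at 0), with exact binomial intervals at 95% that cover counting error only. None of the 9 genes passed 1.5-fold, a size passed by 3.83% of the 14599 genes at a mean of 1 TPM or more. The interval lay above 0 for 6 of 9 genes, against a background of 27.7% for intervals above 0. It lay below 0 for Sox6 alone, against 27.2%, and spanned 0 for Prox1 and Nr2f2. With 1 library on each side no test of the difference exists.

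Dlx5 had the largest ratio at 0.50 (interval 0.38 to 0.62), higher in replicate 2. Dlx2 and Lhx6 both followed at 0.25 (0.16 to 0.33 and 0.08 to 0.41), then Satb1 at 0.21 (0.17 to 0.26), Dlx1 at 0.21 (0.17 to 0.24) and Dlx6 at 0.18 (0.06 to 0.30). Nr2f2 was at 0.07 (−0.03 to 0.16), Prox1 at −0.02 (−0.16 to 0.12) and Sox6 at −0.12 (−0.22 to −0.01). All 4 Dlx genes, with Satb1 and Lhx6, were thus the higher in replicate 2, Sox6 was the lower, and Prox1 and Nr2f2 were near 0. The median of the 9 was 0.21, against −0.0021 for all genes at a mean of 1 TPM or more. Over those single genes the interquartile range of the ratio was −0.10 to 0.10, which is not the spread of a median. By deposited TPM, which shifts all genes to a median of −0.13, the median of the 9 was 0.07 and Nr2f2 fell on the other side of 0 (−0.01), with Satb1 at 0.0021.

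**Figure D3:**
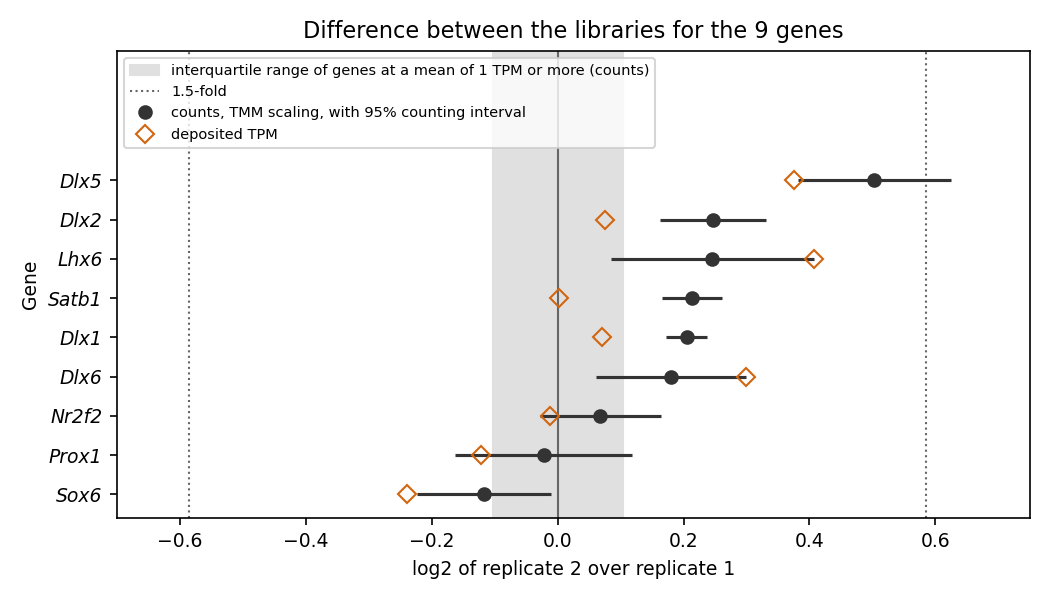
Log2 of replicate 2 over replicate 1 for each of the 9 genes, with circles for TMM-scaled counts, horizontal lines for 95% counting intervals, diamonds for deposited TPM and a grey band for the interquartile range of genes at a mean of 1 TPM or more. Dlx5 lies farthest to the right at 0.50, Sox6 farthest to the left at −0.12, and no gene reaches the dotted 1.5-fold lines.

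Markers of the cells that can hold these RNAs also differed between the libraries. Of 20 interneuron class genes at a mean of 1 TPM or more, 14 had the higher value in replicate 2, and the median log2 ratio was 0.17. The background for this and the lists below is 7224 of 14599 genes higher in replicate 2 at that level. Their ratios ran from −0.18 for Ndnf, of neurogliaform cells, to 0.83 for Pvalb, of fast-spiking interneurons, whose levels were 18.9 and 31.0 TPM. Sst, the somatostatin gene, stood at 317 and 362 TPM (ratio 0.30) and Vip at 26.6 and 27.3 TPM (0.17). The most abundant genes of this list, Cck and Gad1, stood at 654 and 716 TPM (ratio 0.24) and at 468 and 631 TPM (ratio 0.17). Cck is also made by excitatory neurons. Gad2, which like Gad1 makes GABA, was at 48.5 and 43.3 TPM with a ratio of −0.01, so not all genes of the list differed in the same direction.

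The Dlx genes are also active in the olfactory bulb. Its 10 listed genes had a median ratio of 0.08, with 8 of 10 higher in replicate 2. Pcp4l1 stood at 269 and 253 TPM and Doc2g, of mitral and tufted cells, at 149 and 161 TPM, the highest ratio of the list at 0.24, with Cdhr1 the lowest at −0.12. Dcx, a marker of migrating neuroblasts, stood at 25.6 and 25.9 TPM. Striatal projection neurons, which descend from Dlx-expressing progenitors too, had 8 of 10 listed genes at a mean of 1 TPM or more, 7 of them higher in replicate 2, with a median of 0.47. Penk stood at 102.1 and 115.9 TPM, Ppp1r1b at 53.7 and 77.0 TPM, and the list ran from −0.26 for Ebf1 to 1.10 for Drd2. The part of either cell group in the levels or ratios of the Dlx genes was not tested.

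For Sox6, itself at −0.12, the oligodendrocyte precursor list had a median of 0.13 over 7 genes, but its genes split, with 4 of 7 higher in replicate 2. Olig1, at 84.3 and 94.0 TPM, was highest at 0.29. Pdgfra, at 11.7 and 8.90 TPM, was lowest at −0.26, and Cspg4 and C1ql1 were both at −0.23. The part of these cells in the ratio of Sox6 was not tested. Sox10, which mature oligodendrocytes make too, stood at 28.0 and 29.3 TPM. For Nr2f2, endothelial genes had a median of −0.14, with Ly6c1 highest at 0.42 and Slco1a4 lowest at −0.34, and Cldn5 at 55.5 and 51.8 TPM. Mural genes had a median of −0.34, with 0 of 6 higher in replicate 2, from −0.83 for Myh11 to −0.24 for Vtn, whose level was 103 and 89.0 TPM. Nr2f2 itself, at 0.07, lay above both medians, and their part in its level was not tested.

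For Prox1, the other 5 dentate gyrus markers were split. C1ql2 had 54 and 32 counts, Dsp 111 and 110 and Lct 105 and 205, while Fibcd1 stood at 4.65 and 3.93 TPM, above Prox1 itself, and Calb1, which cortical neurons make as well, at 28.0 and 25.7 TPM. Their part in the level of Prox1 was not tested. Lymphatic endothelial Lyve1 had 90 and 37 counts and Flt4 498 and 388. For Satb1, the T cell genes Cd3e and Cd8a were near 0, with 4 and 6 and with 3 and 1 counts, while Trbc2 stood at 10.6 and 12.8 TPM. Excitatory neuron genes, the other candidates for Satb1 RNA, had a median ratio of 0.18, with Neurod6 lowest at −0.04 and 4 of 6 higher in replicate 2.

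Transcript quantification divides each gene's reads among annotated transcripts, so the shares below are estimates and not separate counts. Of the 47 transcripts 23 had a mean of 1 TPM or more. The deposited TPM intervals of the 2 libraries were apart for 8 of these 23, against 30.5% of 26895 transcripts of multi-transcript genes at the same level. The share of the gene's TPM differed by 10 points or more for 4 of 23, against 8.28%. The most abundant transcript was the same in both libraries for 8 of 9 genes, against 91.9% of 10128 genes, and the exception was Satb1. There, Satb1-203 led in replicate 1 with 39.0% and Satb1-213 in replicate 2 with 42.4%.

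By TPM, the leading transcript took a smaller share in Dlx1 than in the other 8 genes. By counts this did not hold, since Satb1-213 took 45.3% and 56.1% of Satb1 counts in replicates 1 and 2. The full-length Dlx1-201 took 29.0% of Dlx1 TPM in replicate 1 and 30.7% in replicate 2, or 55.0% and 58.3% of Dlx1 counts, since TPM gives more weight to short transcripts. Transcripts annotated as protein coding took 47.99% and 41.16% of TPM in all, against a median of 91.2% over 9698 genes (percentile 9.51 for Dlx1). Retained-intron transcripts took 41.6% and 30.2%. Dlx1-204, annotated as a target of nonsense-mediated decay, the pathway that removes mRNAs with early stop codons, took 10.5% in replicate 1 and 28.7% in replicate 2. Its estimated level was 9.74 TPM (488 counts) in replicate 1 against 28.1 TPM (1255 counts) in replicate 2, with intervals apart. The short 5′ fragment Dlx1-205 went the other way, at 15.4 and 7.08 TPM. So did the retained-intron Dlx1-206, at 19.99 and 12.35 TPM, both with intervals apart. Both overlap Dlx1-204, and whether reads were divided differently among these transcripts was not tested.

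Dlx1-204 and the Dlx5 transcript Dlx5-202 each use a later splice acceptor in exon 2 than the full-length transcript. They also differ from it at their ends, Dlx1-204 being 813 nt long against 4111 nt for Dlx1-201 and Dlx5-202 1324 nt against 1423 nt for Dlx5-201. The exon 2 sequences are shown because both acceptors fall at the same place in the homeobox. In the sequences below, printed 5′ to 3′ from GENCODE M21 (mm10), capitals mark the bases of the full-length transcript that the later acceptor skips, with 20 bases of shared sequence on each side. The skipped stretch lies at chr2:71530957-71531053 (plus strand) for Dlx1 and at chr6:6879629-6879710 (minus strand) for Dlx5.
Dlx1-201: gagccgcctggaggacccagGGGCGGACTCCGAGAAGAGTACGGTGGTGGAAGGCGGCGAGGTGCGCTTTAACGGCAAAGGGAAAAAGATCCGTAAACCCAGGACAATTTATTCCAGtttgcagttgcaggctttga
Dlx5-201: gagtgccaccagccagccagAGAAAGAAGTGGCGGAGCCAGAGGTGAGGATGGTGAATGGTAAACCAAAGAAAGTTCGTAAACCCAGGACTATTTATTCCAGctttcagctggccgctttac

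The skipped stretch is 97 bases long in Dlx1 and 82 bases in Dlx5. In both genes it takes the first 29 bases of the homeobox printed above, leaves an exon 2 of 103 bases and shifts the reading frame, since each length leaves a remainder of 1 when divided by 3. The annotation classes Dlx5-202 as protein coding and Dlx1-204 as a decay target. Dlx5-202 took 4.33% and 7.98% of Dlx5 TPM (41 and 88 counts), with overlapping intervals. Both skipping transcripts thus had the higher estimate in replicate 2, for Dlx1 with intervals apart and for Dlx5 without. These estimates are for whole transcripts, and a difference in use of the later acceptor itself was not tested.

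The other Dlx genes differed in how concentrated their output was. Dlx2-201 took 93.0% and 96.1% of Dlx2 TPM and Dlx5-201 took 95.7% and 92.0% of Dlx5 TPM. Dlx6 was divided, with Dlx6-203 at 52.9% and 37.0%, the longer Dlx6-202 at 25.8% and 20.3% and the retained-intron Dlx6-204 at 21.3% and 19.5%. Dlx6-201, a 605-nt transcript with an incomplete 5′ end, was listed at 0 TPM in replicate 1 and at 4.05 TPM (118 counts) in replicate 2, 23.2% of the gene. The gene count of Dlx6 was 1187 and 1107, so the higher TPM in replicate 2 went with more reads on this short transcript and a shorter effective length (845 nt against 1012 nt).

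Lhx6 was divided too, at lower counts. Lhx6-201 took 49.8% and 41.8%, Lhx6-204 44.5% and 31.9%, and the incomplete Lhx6-206 0% and 23.9%, the latter with 0 and 37 counts. The effective lengths of Lhx6 were 3054 and 2459 nt in replicates 1 and 2, beside TPM values of 2.51 and 3.36, and with a fixed length the levels were 2.34 and 2.53 TPM. The difference in Lhx6 TPM between the libraries was thus smaller on the fixed length. Nr2f2 was divided between Nr2f2-202, with 60.4% and 63.9% of TPM, and the longer Nr2f2-201, which held 64.3% and 60.9% of the counts. Prox1-202 took 93.2% and 89.1% and Sox6-204 64.7% and 63.5%, each the leading transcript in both libraries.

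**Figure D4:**
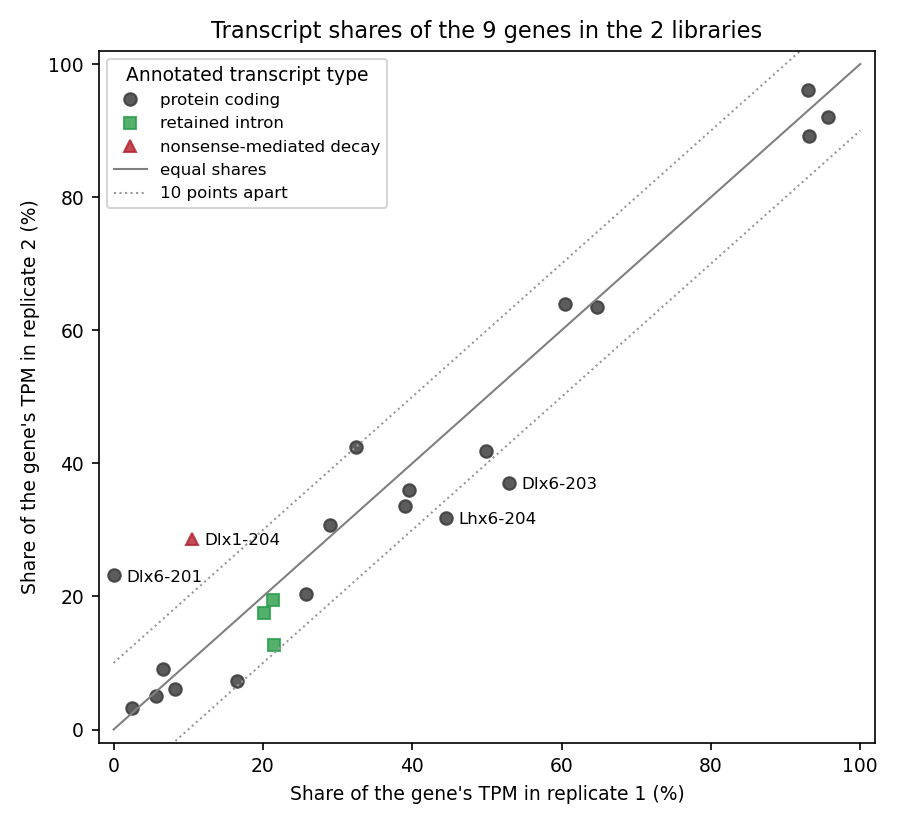
Share of the gene's TPM taken by each of the 23 transcripts at a mean of 1 TPM or more, in replicate 1 (horizontal axis, percent) and replicate 2 (vertical axis, percent), with the symbol giving the annotated type and dotted lines 10 points from equality. The 4 transcripts outside the dotted lines are Dlx1-204 (10.5% and 28.7%), Dlx6-201 (0% and 23.2%), Dlx6-203 (52.9% and 37.0%) and Lhx6-204 (44.5% and 31.9%).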

How the data were processed

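The authors quantified genes and transcripts per library (assembly mm10, annotation release M4), as the text deposited beside the tables states. Which aligner and quantifier they ran is not given in the sources used here. From the deposited tables came expected counts, TPM (scaled over genes, tRNAs and spike-ins together), FPKM, the percent of a gene's TPM per transcript, and interval bounds whose level is not stated. Symbols, types, coordinates and sequences came from GENCODE M21 (mm10), matched for 42462 of 43346 genes.

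Ratios between the libraries (log2, replicate 2 over replicate 1) use rounded counts of annotated genes with a prior count of 2, scaled by TMM (factors 1.02 and 0.982) in edgeR 4.0.16 and R 4.3.3, checked on simulated data. Counting intervals are exact conditional binomial intervals at 95% from scipy 1.17.1. They cover counting error only, since PCR copies were not marked by molecular identifiers. No p-values were computed, since 1 group of 2 libraries gives no contrast, and with n = 2 the SDs rest on 1 degree of freedom. Nothing in the labels shows how the animals were divided between the libraries.

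The genes, the pairs and the 18 marker lists were chosen with earlier results of these data known. Named genes are the 9 members, the genes of the 25 pairs, the 2 most abundant genes of each list with those at the ends of its ratio range, genes overlapping a member, and for each member the listed gene nearest in level. Other genes, among them Sst, Vip, Lct, Gad2, Dcx, Sox10, Xist, Eif2s3y and Fos, and the low markers of other cell types were chosen after their values were seen. Alternatives covered posterior means, FPKM, detection thresholds, counts without length, library size, size factors from DESeq2 1.42.0, spike-in totals, prior counts, pseudocounts and single libraries. Some genes that the rule names are kept in counts and medians but are not reported here.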

Additional observations from a re-analysis of the deposited data

How the results depend on the processing

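All 9 genes reached the detection threshold under each alternative run except 5 TPM, which 6 reached. The number of neighbours apart in the order of levels was 4 in the reported comparison and ranged from 5 to 7 with single libraries, where only the separation of intervals was required. It was 7 with counts not divided by length and 6 with a fixed length, but there the order itself changed, so some neighbours were other pairs. By counts the order was Dlx1, Satb1, Dlx2, Nr2f2, Sox6, Dlx6, Dlx5, Prox1 and Lhx6. With a fixed length Dlx6 came after Dlx2 and Dlx5. Pairs apart numbered 23 to 25 under every alternative run, those with Dlx3 and Dlx4 included. With counts (24) and a fixed length (25), separation of intervals was not required of a pair. Dlx5 over Dlx6 turned to 0.68 with a fixed length per gene, an alternative chosen after seeing the data, and Lhx6 over Prox1 turned to −0.40 with counts not divided by length. The median ratio of the 9 genes was 0.21 with TMM and 0.070 with deposited TPM, where all genes had −0.13. Genes higher in replicate 2 numbered 7 of 9 under TMM, DESeq2 size factors, library size and the spike-in total, and 6 of 9 by TPM. Among all genes at a mean of 1 TPM or more, 7224 of 14599 were higher there under TMM. No gene passed 1.5-fold under any scaling run. The same leading transcript in both libraries was found for 8 genes by TPM and for 9 by counts, and this count could not be made from 1 library. The leading transcript of Nr2f2 by TPM, Nr2f2-202, held 37.4% of its counts. No paired analysis was possible because there was 1 group. Lists with a median ratio above that of all genes numbered 11 of 18 with TMM and 13 by TPM. Depth limits the statements on Dlx3, Dlx4, Lhx8, Nkx2-1, Cd3e and Cd8a, which had 26 counts or fewer in each library.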

Other observations

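Among the 142 listed genes that are not members, those nearest in level to 8 of the 9 members over the 2 libraries, by Euclidean distance of log2(TPM + 0.1), were Sox13 to Nr2f2 (distance 0.05), Dlx1as to Dlx2 (0.07), Trbc2 to Dlx5 (0.08), Sall2 to Satb1 (0.10), Sp8 to Dlx6 (0.11), Olig1 to Dlx1 (0.15), Zfhx4 to Sox6 (0.18) and Drd2 to Lhx6 (0.39). Nearness over 2 libraries of 1 tissue describes levels only.

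The remaining lists differed in direction between the libraries. All 6 of 6 mature oligodendrocyte genes had the higher value in replicate 2. Their median log2 ratio was 0.43, the lowest being Cnp (0.11) and the highest Mbp (0.47), which stood at 983 and 1275 TPM. All 5 of 5 microglial genes had the lower value there, at a median of −0.34, from −0.57 for P2ry12 to −0.30 for Tmem119, and C1qb stood at 66.8 and 49.4 TPM and Ctss at 49.1 and 35.6 TPM. Meningeal fibroblast genes had a median of −0.37, with Ogn lowest at −0.84, Col1a1 highest at 0.40, Igf2 at 42.1 and 30.0 TPM and Dcn at 13.4 and 11.1 TPM. Astrocyte genes had a median of 0.05, with Aldoc highest at 0.19, Aqp4 lowest at −0.37 and Slc1a2 at 292 ± 4.09 TPM. Further GABAergic and progenitor factors had a median of 0.03. The ratio of Zfhx4 was −0.16. Paralogs of the members had a median of 0.06, with Lmo3 lowest at −0.56. The CGE and lateral eminence factors had a median of 0.05, from −0.26 for Npas1 to 0.40 for Sp8, and in the MGE list Tox was lowest at −0.30. The dentate gyrus list includes Prox1 itself, and its median of −0.02 over 3 genes is Prox1's own ratio, so it adds nothing about Prox1. At a mean of 1 TPM or more, the lymphatic list had Pdpn alone at −0.31 and the T cell list Trbc2 alone at 0.38. How these differences bear on the 9 genes was not tested.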
